A study of Mus musculus with 6 samples.

Results

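The proteasome genes of the adult mouse heart were examined 5 days after tamoxifen in mice with an induced deletion of Paxip1, the gene of the nuclear protein PTIP. They were taken by symbol, as every gene whose name begins with Psma, Psmb, Psmc, Psmd, Psme, Psmf or Psmg. Each gene was read from the probe set that is annotated to that gene alone and has the highest mean over the 6 arrays. The rule gave 49 of the 18194 genes measured, with 15 of the core, 17 of the regulatory particle, 4 of the immunoproteasome and thymoproteasome, 7 assembly chaperones, and 4 activators and inhibitor. The other 2, Psmc3ip and Psme3ip1, have such a symbol because their proteins were named for a proteasome partner, and are not parts of the particle.

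The proteasome is the cell's main protease for proteins tagged with ubiquitin. Its core is a barrel of alpha and beta rings with the active sites inside, and a regulatory particle at its end recognises the ubiquitin chain, unfolds the substrate with a ring of ATPases and feeds it in. Interferon replaces the active subunits by induced ones to form the immunoproteasome, and other caps can take the place of the regulatory particle. In heart muscle it removes worn contractile and regulatory proteins.

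RNA was taken from left ventricular apices of 6 female littermates aged 8 weeks, on mixed C57B6 and B6129 strains, with 1 Affymetrix array for each mouse. The 3 PTIP KO mice, called KO 1 to 3 here, had 1 floxed and 1 null PTIP allele and a transgene for a Cre recombinase fused to a modified estrogen receptor, driven by the alpha myosin heavy chain promoter. The 3 PTIP+ mice, called controls 1 to 3, had 1 floxed and 1 wild-type allele, and the labels mention no Cre transgene in them. All 6 received tamoxifen at 20 mg/kg. The labels speak of collection 5 days after injection and also of treatment for 5 days, so how many injections were given is not settled. The driver acts in cardiomyocytes, so other cells of the apex should keep the floxed allele. The deletion, the null allele and the Cre fusion differ together between the groups and cannot be told apart. Because the apex is a bulk sample, fewer cells of a type and less RNA per cell cannot be told apart either.

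Levels are log2 values, so a difference of 1 is a 2-fold change, and differences are PTIP KO minus PTIP+. Paxip1 was lower in every KO mouse than in every control on its 4 probe sets, by -0.95 to -1.83, and 3 of these passed limma at an adjusted p under 0.05. Which part of the gene was deleted is not given in the labels. All 10 cardiomyocyte markers examined were bright, with a mean log2 level of 13.36 to 13.42 in each mouse. Control 1 had the largest gap between the 3' and 5' control probe sets of Actb, at 1.85 against 1.17 to 1.64 in the other mice, and of Gapdh, at 1.27 against 0.66 to 0.93. That gap grows as RNA degrades.

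No proteasome gene passed in the PTIP KO ventricles. By limma with Benjamini-Hochberg adjustment, 0 of 49 genes passed an adjusted p under 0.05, where 52 of all genes, or 0.286%, did. At an unadjusted limma p under 0.05 the count was also 0, against 9.27% of all genes. Without control 1 none passed, and 1 gene, Psmg4, had an unadjusted limma p under 0.05, beside 10.2% of all genes. The differences ran from -0.22 for the core assembly chaperone Psmg4 to 0.28 for the induced catalytic subunit Psmb9, with a median of 0.02 beside 0.022 over all genes. In folds that range is 0.861 to 1.22. Of the 49, 7 had groups that did not overlap, beside 16.0% of all genes. These were Psmb3, Psmc5, Psmd13, Psmf1 and Psmc3ip with the KO mice above, and Psmb2 and Psme4 with the KO mice below. An exact two-sided permutation test gives p = 0.1 for each, the smallest value that 3 against 3 mice allow.

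A p above the threshold does not show equal levels, so the intervals matter more here. The limma interval of 95% lay inside differences of -0.5 and 0.5 (1.41-fold) for 42 of the 49 genes (85.7%), beside 56.5% of all genes. It lay inside -1 and 1 (2-fold) for all 49. The farthest bounds were -0.66 for Psma8 and 0.71 for Psmb9. These intervals are not adjusted for the number of genes. The median SD within a group was 0.107 for the members and 0.172 for all genes. Most members are bright, so they were also set beside the 724 other genes with a mean at or above that of the median core subunit. In those the median SD was 0.073, the interval lay inside -0.5 and 0.5 for 91.4%, the median absolute difference was 0.055, near the 0.059 of the members, and 3.59% had an unadjusted limma p under 0.05.

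**Figure D1:**
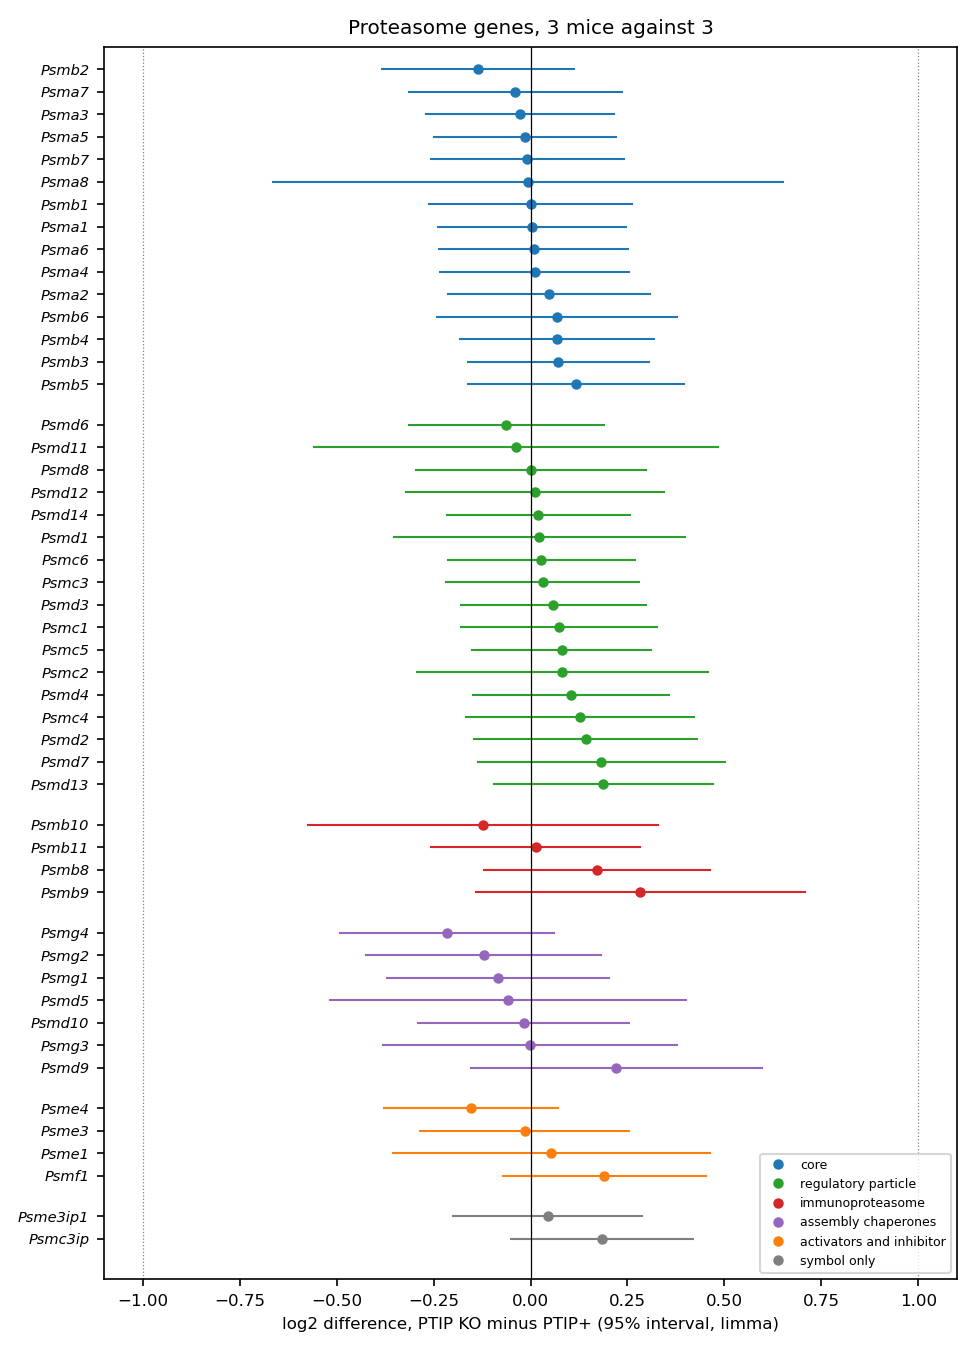
Log2 difference (horizontal axis, PTIP KO minus PTIP+, 3 mice against 3) of each of the 49 genes, with its 95% limma interval as a bar and its class as the colour. Every interval reaches across 0 and stays within -1 and 1, and the points run from -0.22 (Psmg4) to 0.28 (Psmb9).

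More genes stood above 0 than below, 32 against 17, but this split moved with the scaling and with 1 mouse. Over all genes 55.1% were higher. With each array centred on its own median the split was 41 against 8 for the members, and 64.8% of all genes were then higher. Without control 1 it was 24 against 25 for the members, while 58.7% of all genes were higher. Control 1 gave the lowest value for 23 of the 49 genes, whereas 20.3% of all genes were lowest there. KO 1 gave the highest value for 15 members, and for 22.1% of all genes. The part of the RNA quality of control 1 in these values was not tested.

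**Figure D2:**
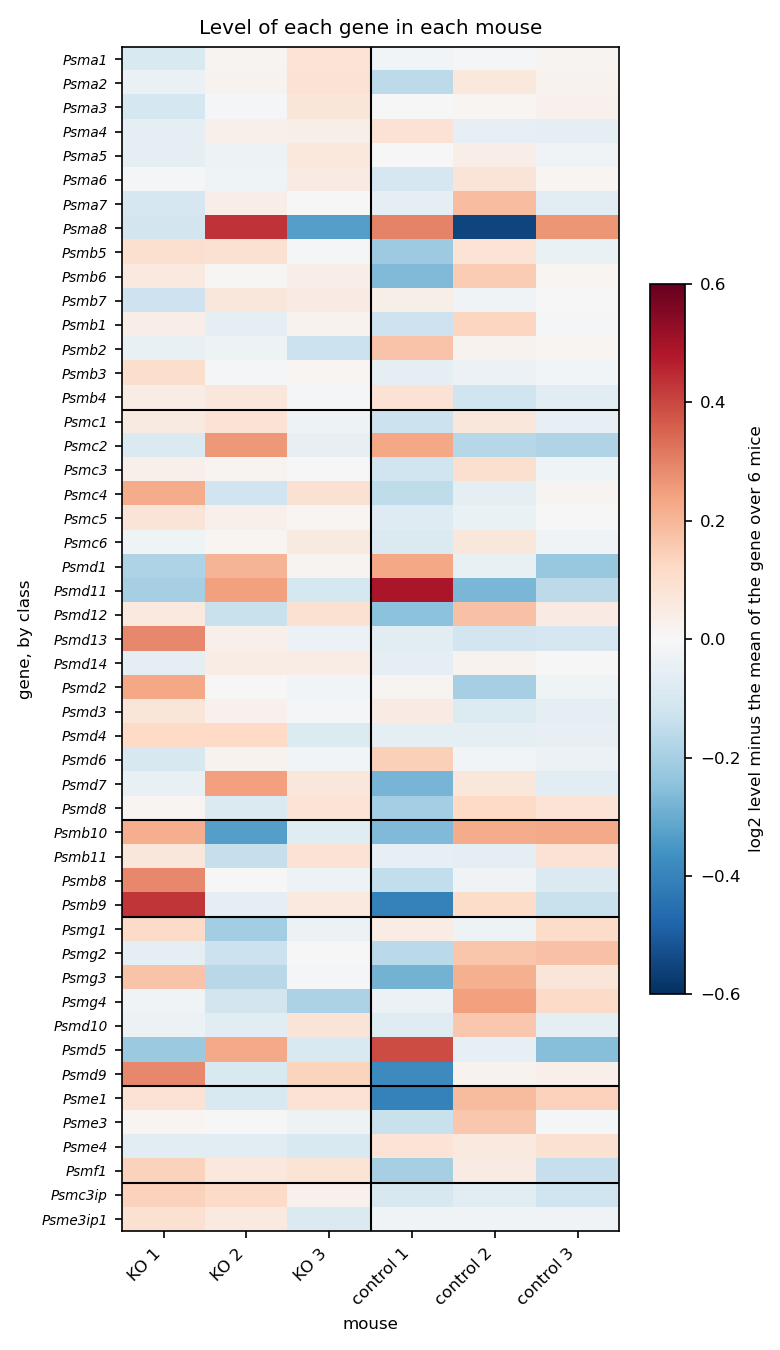
Level of each gene in each mouse as a log2 deviation from that gene's mean over the 6 mice (red above, blue below, colour scale from -0.6 to 0.6), with genes in rows by class and mice in columns. Column control 1 holds the lowest value of 23 genes, while single genes such as Psmd11 and Psmd5 are high in KO 2 and control 1 together.

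The alpha ring, which forms the gate of the core barrel, was nearly level between the groups. Its 8 genes had 4 differences above 0 and 4 below, and none lay farther from 0 than Psma2 at 0.05. In the core as a whole 9 lay above 0 and 6 below, or 14 and 1 with each array centred on its median. Psma2 read 11.72, 11.78 and 11.85 in KO 1 to 3 and 11.60, 11.83 and 11.78 in controls 1 to 3, a difference of 0.05 (SE 0.11, limma adjusted p = 0.949). Psma7 read 11.69, 11.84 and 11.79 in the KO mice and 11.74, 11.98 and 11.72 in the controls, differing by -0.04 (SE 0.12). The groups overlapped for both. Psma3 read 11.83, 11.93 and 12.01 against 11.94, 11.95 and 11.97, and Psma5 read 11.11, 11.13 and 11.22 against 11.17, 11.20 and 11.14. Their differences were -0.03 and -0.01, and the groups overlapped. Psma1, Psma4 and Psma6 differed by 0.005 to 0.011. Psma8, the alpha subunit of the testis form of the core, was the dimmest and most variable alpha gene here, at 5.92, 6.46 and 5.70 against 6.33, 5.48 and 6.30, and differed by -0.006 with an SE of 0.28.

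The structural beta subunits complete the inner rings without cutting substrate. Psmb2 read 11.40, 11.42 and 11.32 in the KO mice and 11.62, 11.47 and 11.46 in the controls. All KO values lay below all control values, by -0.14 on average (SE 0.11, limma adjusted p = 0.793), or by -0.084 without control 1. Psmb3 read 12.08, 11.96 and 11.98 against 11.92, 11.93 and 11.96, with every KO mouse above every control and a difference of 0.07 (SE 0.10, limma adjusted p = 0.901). A second Psmb3 probe set, 1417052_at, differed by 0.22 with overlapping groups. Psmb4 read 11.78, 11.80 and 11.72 against 11.82, 11.61 and 11.67 (difference 0.07), and Psmb1 read 11.91, 11.81 and 11.89 against 11.75, 11.999 and 11.86 (difference 0). Both overlapped.

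Each of the constitutive catalytic subunits has an induced counterpart that replaces it in the immunoproteasome. Psmb5, the chymotrypsin-like subunit, gives way to Psmb8, Psmb6, the caspase-like subunit, to Psmb9, and Psmb7, the trypsin-like subunit, to Psmb10. In the RefSeq table of the assembly GRCm38.p6, Psmb5 lies on chr14:54614120-54617995 and Psmb6 on chr11:70525324-70527858. Psmb7 lies on chr2:38588046-38643952 and Psmb10 on chr8:105935728-105938392. Psmb9 (chr17:34182030-34187330), the peptide transporter gene Tap1 (chr17:34187556-34197225) and Psmb8 (chr17:34198195-34201454) follow one another on chromosome 17. Psmb9 and Tap1 point away from each other with starts 226 bases apart.

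Promoters are shown for Psmb5, Psmb6, Psmb8 and Psmb9, as 250 bases before to 50 after the RefSeq start in GRCm38.p6. Psmb5 (chr14:54617946-54618245, minus strand) and Psmb6 (chr11:70525107-70525406, plus strand) have in capitals the core of the antioxidant response element, TGACNNNGC, the motif type bound by Nfe2l1 and Nfe2l2 with small Maf proteins. Psmb8 (chr17:34197945-34198244, plus strand) has in capitals a gamma-activated site, TTCNNNGAA, the motif type bound by STAT proteins after interferon. Psmb9 (chr17:34187281-34187580, minus strand) has in capitals a CCAAT box, CCAAT, that lies on the opposite strand. This window shares 275 bases with that of Tap1 (chr17:34187306-34187605, plus strand).
Psmb5: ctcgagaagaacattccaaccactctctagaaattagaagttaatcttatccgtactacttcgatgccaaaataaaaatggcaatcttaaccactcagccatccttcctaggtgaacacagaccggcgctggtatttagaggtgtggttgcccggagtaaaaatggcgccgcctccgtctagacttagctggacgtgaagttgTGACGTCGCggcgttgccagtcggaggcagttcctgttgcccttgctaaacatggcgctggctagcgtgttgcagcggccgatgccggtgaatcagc
Psmb6: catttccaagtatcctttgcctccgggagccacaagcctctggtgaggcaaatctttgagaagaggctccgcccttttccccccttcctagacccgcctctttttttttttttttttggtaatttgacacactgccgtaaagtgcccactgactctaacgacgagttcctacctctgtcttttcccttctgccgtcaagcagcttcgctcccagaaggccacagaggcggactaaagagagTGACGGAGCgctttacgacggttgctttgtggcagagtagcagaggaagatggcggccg
Psmb8: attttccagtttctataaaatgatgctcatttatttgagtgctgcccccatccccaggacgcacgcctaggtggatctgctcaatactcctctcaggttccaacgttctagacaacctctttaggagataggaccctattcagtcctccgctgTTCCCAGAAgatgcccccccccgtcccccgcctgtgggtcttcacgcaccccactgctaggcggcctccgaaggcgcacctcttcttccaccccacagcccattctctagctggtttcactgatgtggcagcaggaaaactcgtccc
Psmb9: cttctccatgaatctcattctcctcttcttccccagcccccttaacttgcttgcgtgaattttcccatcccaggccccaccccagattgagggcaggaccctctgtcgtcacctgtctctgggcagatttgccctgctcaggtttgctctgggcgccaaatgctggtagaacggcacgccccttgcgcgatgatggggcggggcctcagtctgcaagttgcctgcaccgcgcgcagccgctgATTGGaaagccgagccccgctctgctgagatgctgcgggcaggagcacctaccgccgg

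Both strands were searched for these 3 motifs, none of which can contain another, in the promoters of the 39 of 47 proteasome parts that matched by symbol. The core TGACNNNGC was found in 6 of 39 (15.4%), beside 14% of the 27025 gene promoters of equal length. The 6 were Psmb5, Psmb6, Psmc6, Psmd9, Psmd12 and Psme4, with the motif 47 bases before the start in Psmb5, 9 in Psmb6, 31 in Psmd9, 7 in Psme4, 227 in Psmc6 and 247 in Psmd12. TTCNNNGAA was found in 3 of 39 (7.69%), Psmb8, Psmd2 and Psmg1, beside 9.55% of all, and it lay 97 bases before the start of Psmb8. CCAAT was found in 14 of 39 (35.9%), beside 41.1% of all, and besides Psmb9 in core genes such as Psma1 and Psmb3. Psmb7 and Psmb10 are not among the genes with a match to any of the 3 motifs. Whether both were among the 39 searched is not given here, so this does not show that they lack the motifs. Their promoters are not shown, and those shown do not stand for all the catalytic genes. A match describes letters and does not show a bound site.

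The 3 constitutive catalytic subunits overlapped between the groups. Psmb5 read 11.54, 11.54 and 11.43 in KO 1 to 3 and 11.22, 11.53 and 11.40 in controls 1 to 3, with control 1 alone low and a difference of 0.12 (SE 0.12, limma adjusted p = 0.853). Without control 1 the Psmb5 value was 0.037. Psmb6 read 12.18, 12.13 and 12.16 against 11.86, 12.28 and 12.14, again with control 1 lowest, and differed by 0.07 (SE 0.13, limma adjusted p = 0.935). Without control 1 the Psmb6 value was -0.047. Psmb7 read 10.76, 10.95 and 10.94 against 10.92, 10.87 and 10.89, with KO 1 lowest and a difference of -0.008 (SE 0.11, limma adjusted p = 0.993).

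The induced subunits Psmb8, Psmb9 and Psmb10 overlapped between the groups as well. Psmb9 read 8.64, 8.15 and 8.27 in the KO mice and 7.80, 8.32 and 8.08 in the controls, with KO 1 highest and control 1 lowest. Its difference was 0.28 (SE 0.18, 95% interval -0.14 to 0.71, limma adjusted p = 0.737). Without KO 1 it was 0.14, without control 1 it was 0.15, and without control 2 it was 0.41. Psmb8 read 9.32, 9.03 and 9.005 against 8.88, 9.01 and 8.95, with KO 1 above all other mice. It differed by 0.17 (SE 0.12, limma adjusted p = 0.776). Without KO 1 the value was 0.07. Psmb10 took a different order, at 10.72, 10.18 and 10.43 against 10.24, 10.73 and 10.73, low in KO 2 and control 1 and high in KO 1 and controls 2 and 3. Its difference was -0.12 (SE 0.19, limma adjusted p = 0.915), 0.012 without KO 2 and -0.29 without control 1. Psmb11, the thymus subunit, lay near the lower end of the scale at 2.12 to 2.35 in all 6 mice and differed by 0.013.

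Set against its constitutive counterpart within each mouse, no induced subunit separated the groups. The log2 ratio of Psmb8 to Psmb5 differed between groups by 0.05 (exact permutation p = 0.6), that of Psmb9 to Psmb6 by 0.22 (exact permutation p = 0.2) and that of Psmb10 to Psmb7 by -0.11 (exact permutation p = 0.9).

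**Figure D3:**
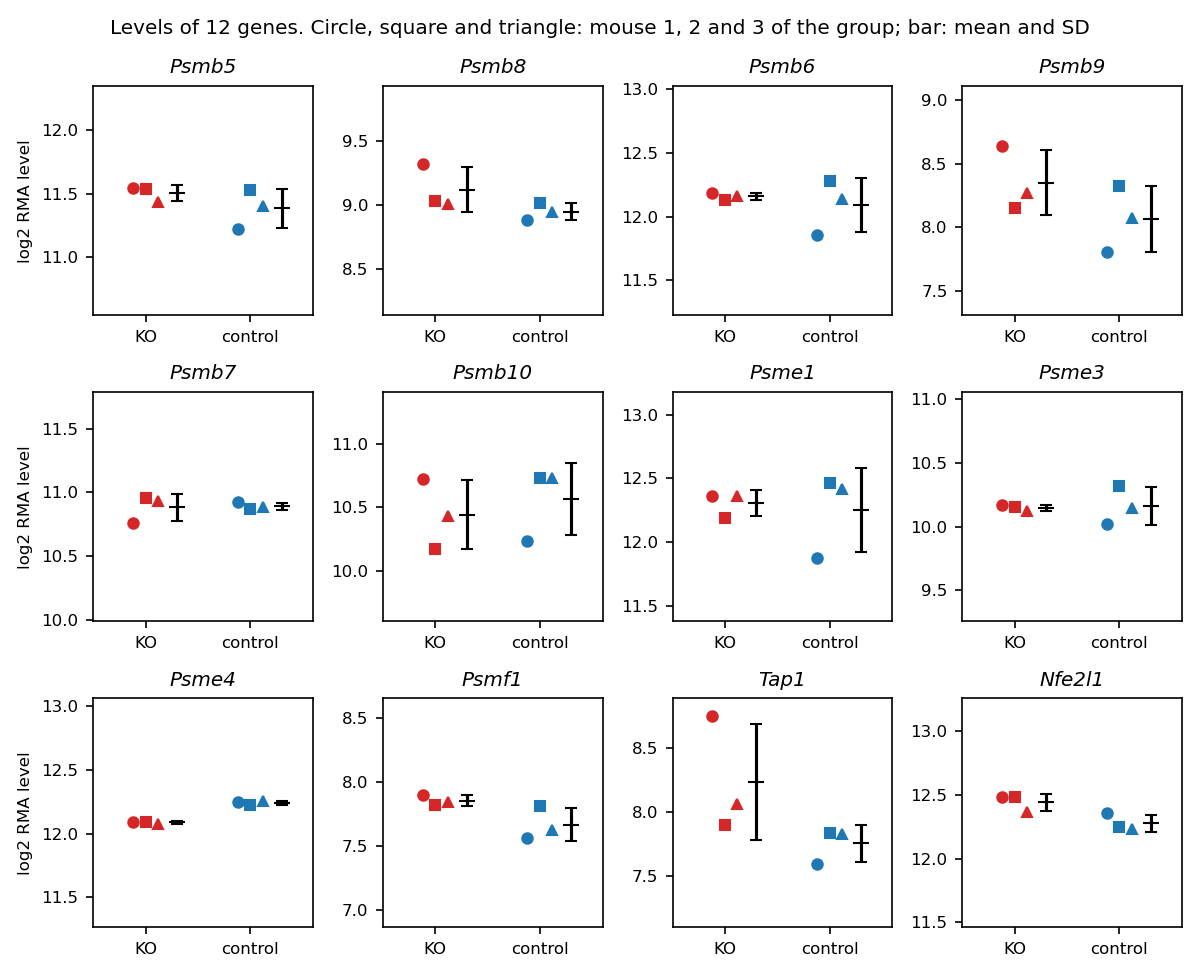
Log2 level (vertical axes, equal span in each panel) of the catalytic pairs Psmb5 and Psmb8, Psmb6 and Psmb9, and Psmb7 and Psmb10, and of Psme1, Psme3, Psme4, Psmf1, Tap1 and Nfe2l1, in 3 KO and 3 control mice, with the mean and SD of each group. KO 1 is highest for Psmb8, Psmb9 and Tap1, and the groups do not overlap for Psme4, Psmf1, Tap1 and Nfe2l1.

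Genes that carry proteasome products to the cell surface are listed beside the immunoproteasome because interferon induces many of both. Of 12 listed genes of peptide loading and class I presentation, 11 were measured and 9 (81.8%) were higher, beside 55.1% of all genes. By limma 0 passed, beside 0.286% of all genes, and 0 had an unadjusted p under 0.05, beside 9.27%. The median difference was 0.23, beside 0.022 over all genes. Tap1 read 8.75, 7.90 and 8.06 against 7.59, 7.84 and 7.83, all KO mice above all controls, and differed by 0.48 (SE 0.22, limma adjusted p = 0.595). Without KO 1 it differed by 0.23. H2-K1, a class I heavy chain, read 11.61, 10.99 and 11.17 against 10.53, 11.07 and 10.88, with KO 1 highest and control 1 lowest. It differed by 0.43 (limma adjusted p = 0.603). Without KO 1 the value was 0.25. H2-K1 shares sequence with other class I genes, so its probe set may measure them together. Tap2, the partner of Tap1, read 8.76, 7.99 and 8.32 against 7.74, 8.06 and 8.02 and differed by 0.42, or by 0.22 without KO 1. B2m, the light chain of class I, read 12.56, 12.64 and 12.61 against 12.53, 12.56 and 12.54 and differed by 0.058 (limma adjusted p = 0.920).

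Leukocytes also express the immunoproteasome. Of 14 leukocyte markers 3 (21.4%) were higher and 11 lower in the KO mice, while 55.1% of all genes were higher. Their median difference was -0.21, beside 0.022 over all genes. Their mean log2 level was 6.65, 6.18 and 6.41 in the KO mice and 6.61, 6.41 and 6.61 in the controls. None passed, and Adgre1 (-0.47) and Csf1r (-0.33), both macrophage genes, had an unadjusted limma p under 0.05, or 14.3% of the list beside 9.27% of all genes. The largest difference in the list went the other way, at 0.70 for Nkg7 (SE 0.4, limma adjusted p = 0.687). Nkg7 read 5.92, 4.998 and 4.23 in the KO mice and 4.17, 4.12 and 4.75 in the controls. Cd3e was also highest in KO 1, at 4.22. Itgam, Ms4a1 and Cd3e read at most 4.22 in any mouse, and 5 of the 14 had a mean below the median of all probe sets. Endothelial markers had mean levels of 10.10, 9.998 and 10.16 in the KO mice and 9.82, 10.18 and 10.13 in the controls, with the lowest mean in control 1, where 4 of the 8 markers, Pecam1 among them, had their lowest value. The mean of the mural cell markers was also lowest there, at 9.41 against 9.47 to 9.72 in the other mice, with 3 of 7 lowest. Low values in control 1 were not particular to these lists. It was lowest for 4 of 8 fibroblast markers, 6 of 11 class I genes and 5 of 11 proteasome partners with other symbols. By contrast it was lowest for 0 of 14 leukocyte and 1 of 10 cardiomyocyte markers, beside 20.3% of all genes. The part of these cell types in the values of the induced subunits was not tested.

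In the regulatory particle 15 of 17 differences lay above 0, with a median of 0.06, and no gene passed. Without control 1, 11 of 17 lay above 0. Of the ATPase ring, whose 6 subunits pull substrate into the core, all 6 were above 0, from 0.03 to 0.13. This did not hold without some single mice. Without control 1, Psmc3 differed by -0.019 and Psmc6 by -0.01, and without KO 2, Psmc2 differed by -0.027. Psmc4 read 11.54, 11.20 and 11.41 in the KO mice and 11.17, 11.26 and 11.33 in the controls, overlapping, with a difference of 0.13 (SE 0.13, limma adjusted p = 0.849). Without KO 1 the Psmc4 value was 0.049. Psmc5 read 10.35, 10.30 and 10.29 against 10.20, 10.24 and 10.27, with all KO mice above all controls by a small margin and a difference of 0.08 (SE 0.10, limma adjusted p = 0.886). The margin between the groups was smaller than the spread inside either. Psmc1 read 11.33, 11.37 and 11.25 against 11.15, 11.35 and 11.23 and differed by 0.07. Psmc2 read 11.52, 11.86 and 11.55 against 11.84, 11.43 and 11.42 and differed by 0.08, high in KO 2 and control 1. Psmc3 and Psmc6 differed by 0.032 and 0.027.

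The non-ATPase subunits hold the ubiquitin receptors, the deubiquitinase and the scaffold. Psmd13, a scaffold subunit, read 10.67, 10.41 and 10.35 in the KO mice and 10.31, 10.27 and 10.28 in the controls. All KO mice were above all controls, KO 1 farthest, with a difference of 0.19 (SE 0.12, limma adjusted p = 0.739). Without KO 1 the Psmd13 value was 0.091, and with the mean of its probe sets it was 0.013. A second bright probe set of Psmd13, 1437220_x_at, gave 10.10, 10.02 and 9.88 against 9.84, 9.69 and 9.77 and differed by 0.23, again without overlap. A dim one, 1445729_at, with a mean of 4.86, had the opposite sign at -0.47 (limma adjusted p = 0.524).

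Psmd7, the partner of the deubiquitinase, read 9.50, 9.79 and 9.61 against 9.27, 9.61 and 9.48 and differed by 0.18 (SE 0.14, limma adjusted p = 0.783). It ranged from 0.09 without control 1 to 0.26 without control 2, and was -0.013 with the mean of its probe sets. The dimmer Psmd7 probe set 1432820_at gave -0.02, and 1454368_at gave -0.20. Psmd2, the largest scaffold protein with Psmd1, read 12.07, 11.84 and 11.82 against 11.85, 11.64 and 11.81 and differed by 0.14, or by 0.062 without KO 1 and 0.077 without control 2. Psmd4, a ubiquitin receptor, read 11.66, 11.65 and 11.45 against 11.48, 11.48 and 11.49 and differed by 0.10, with KO 3 below the controls, or by 0.035 with the mean of its probe sets. The groups overlapped for Psmd7, Psmd2 and Psmd4. A dim Psmd4 probe set, 1451725_a_at, differed by -0.10. Of the other 7 non-ATPase subunits, Psmd14, the deubiquitinase, differed by 0.02, and the lowest was Psmd6 at -0.06.

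Psmd11, a scaffold subunit, is named outside the naming rule because its probe sets disagreed. Its brightest, 1440253_at, read 10.85, 11.30 and 10.95 against 11.54, 10.78 and 10.89, highest in control 1 and then KO 2, and differed by -0.04 (SE 0.22). Of its 8 probe sets 5 were above 0. On 1437080_s_at it read 10.85, 10.94 and 10.74 against 10.71, 10.69 and 10.68, without overlap, and differed by 0.14 (limma adjusted p = 0.778). On 1456059_at the difference was 0.21 (limma adjusted p = 0.664), also without overlap.

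**Figure D4:**
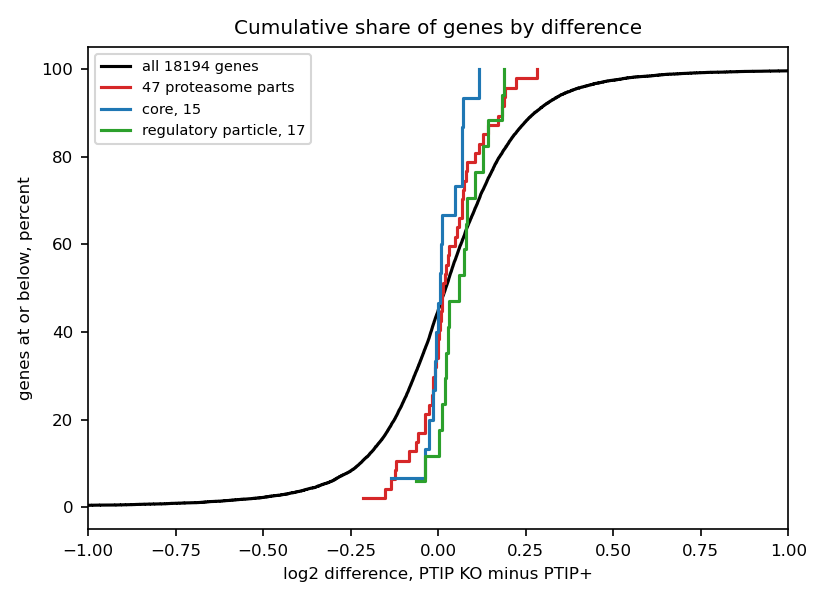
Cumulative share of genes (vertical axis, percent) at or below a log2 difference (horizontal axis, PTIP KO minus PTIP+) for all 18194 genes, the 47 proteasome parts, the 15 core and the 17 regulatory particle genes. The proteasome curves rise steeply near 0, with medians of 0.005 for the core and 0.06 for the regulatory particle beside 0.022 for all genes.

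The assembly chaperones, which build the particle and are not part of its mature form, had 6 of 7 differences below 0 and a median of -0.06. With each array centred on its median the split was 3 above and 4 below. Psmg4, of the chaperones of the alpha ring, had the lowest difference of all members. It read 8.10, 8.01 and 7.93 in the KO mice and 8.09, 8.37 and 8.24 in the controls, with control 1 level with KO 1. The difference was -0.22 (SE 0.12, 95% interval -0.49 to 0.061, limma adjusted p = 0.670). Without control 1 it was -0.29, with an unadjusted limma p of 0.0489 and an adjusted p of 0.440, and with the mean of its probe sets it was -0.09. A dim Psmg4 probe set, 1445700_at, differed by 0.04.

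Psmg2 read 10.21, 10.13 and 10.27 against 10.10, 10.43 and 10.44 and differed by -0.12, with control 1 lowest. Without that mouse Psmg2 differed by -0.23, and without control 2 or 3 by -0.066 or -0.063. Psmg1, its partner, read 9.22, 8.90 and 9.07 against 9.15, 9.08 and 9.22 and differed by -0.08, and Psmg3, the partner of Psmg4, read 9.62, 9.28 and 9.44 against 9.16, 9.66 and 9.52 and differed by -0.001. All of these overlapped. A dim Psmg2 probe set, 1444264_at, differed by 0.08. Among the chaperones of the ATPase ring, Psmd9 read 8.33, 7.95 and 8.18 against 7.66, 8.06 and 8.07, lowest in control 1, and differed by 0.22 (SE 0.16, limma adjusted p = 0.776). Without control 1 the Psmd9 value was 0.085, and with the mean of its probe sets it was -0.08. Its dim probe set 1447670_at differed by -0.55 (limma adjusted p = 0.764). Psmd5 read 9.38, 9.82 and 9.50 against 9.99, 9.55 and 9.34 and differed by -0.06, and Psmd10 read 8.01, 7.97 and 8.12 against 7.97, 8.21 and 7.98 and differed by -0.02.

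Psme4 (PA200), a nuclear cap linked to the breakdown of acetylated histones, was the activator with the tightest groups. Its brightest probe set, 1426823_s_at, read 12.09, 12.09 and 12.07 in the KO mice and 12.25, 12.22 and 12.26 in the controls. All KO mice were below all controls, and the means of 12.09 ± 0.01 and 12.24 ± 0.02 (SD, n = 3 each) differed by -0.15 (SE 0.10, limma adjusted p = 0.729). The SE is wider than these SDs because limma draws each variance towards that of other probe sets. All 6 Psme4 probe sets had a difference below 0. On 1445147_at it read 5.68, 5.23 and 5.64 against 5.99, 6.46 and 6.58, again without overlap, and differed by -0.82 (SE 0.19, limma adjusted p = 0.239). On 1446464_at, below the median brightness of all probe sets, it read 4.19, 3.73 and 4.25 against 4.42, 5.40 and 5.65 and differed by -1.096 (SE 0.32, limma adjusted p = 0.342). The other 3 probe sets differed by -0.18, -0.18 and -0.24 with overlap. The mean over all 6 differed by -0.45 (limma adjusted p = 0.341). Without moderation of the variance the brightest probe set had an adjusted p of 0.192 from the ordinary linear model, which did not pass.

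Psme1, which forms the interferon-induced PA28 cap with Psme2, read 12.36, 12.19 and 12.36 against 11.87, 12.46 and 12.41. It differed by 0.05 (SE 0.18, limma adjusted p = 0.965), with control 1 far below the rest. Without control 1 the Psme1 value was -0.135. Psme2 has no probe set of its own on the array, so it is outside the 49 genes. The probe set 1417189_at, annotated to Psme2 and Psme2b together, read 11.11, 11.12 and 11.08 against 11.03, 11.30 and 11.30 and differed by -0.10 (SE 0.12, limma adjusted p = 0.873). Psme3, the nuclear PA28 gamma, read 10.17, 10.15 and 10.12 against 10.02, 10.32 and 10.15 and differed by -0.015 (SE 0.11, limma adjusted p = 0.987). Both overlapped, and a dim Psme3 probe set, 1438509_at, differed by 0.02.

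Psmf1 (PI31), a protein that inhibits the core in the test tube, was higher on all 4 of its probe sets, though none passed. The brightest, 1451337_at, read 7.90, 7.82 and 7.84 in the KO mice and 7.56, 7.81 and 7.62 in the controls, with all KO mice above all controls and control 2 close to them. It differed by 0.19 (SE 0.11, 95% interval -0.072 to 0.45, limma adjusted p = 0.704). On 1424369_at Psmf1 read 5.95, 6.21 and 5.70 against 5.65, 5.12 and 5.40, without overlap, and differed by 0.56 (SE 0.18, limma adjusted p = 0.414). The other 2 differed by 0.19 and 0.09 with overlap, and the mean over all 4 differed by 0.26 (limma adjusted p = 0.438).

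Across the 103 probe sets annotated to a single member, 54 were not the brightest of their gene, and 35 of these had the sign of the brightest. None of the 54 passed, and 6 had an unadjusted limma p under 0.05, beside 9.07% of all 45037 probe sets. Beside the Psme4, Psmf1 and Psmd13 probe sets given, these were 1458292_at of Psma1, at -0.48 (limma adjusted p = 0.478), and 1435316_at of Psma6, at -0.38 (limma adjusted p = 0.405). Both are dim, with means of 5.28 and 2.70, where the median of all probe sets was 5.19. The brightest probe sets of Psma1 and Psma6 differed by 0.005 and 0.008. The dim probe sets of Psma1 and Psma6 were chosen after their values were seen.

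Psmc3ip, a meiotic recombination factor named for binding an ATPase subunit, read 8.15, 8.13 and 8.04 against 7.92, 7.96 and 7.90, without overlap. It differed by 0.18 (SE 0.10, limma adjusted p = 0.667). Psme3ip1, a partner of Psme3, read 9.69, 9.66 and 9.51 against 9.57, 9.57 and 9.57 and differed by 0.04.

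Nfe2l1 (Nrf1) is the transcription factor that raises proteasome genes when the particle is inhibited. Ngly1 removes its sugars, and it binds DNA with small Maf proteins. Of the 8 genes listed with it, which include its relative Nfe2l2 and Keap1, 7 were measured. All 7 differences were above 0, beside 55.1% of all genes, with a median of 0.16 beside 0.022 over all genes. None passed by limma, and 1 of 7 had an unadjusted p under 0.05, beside 9.27% of all genes. Groups did not overlap for 4 of the 7, beside 16.0% of all genes. Nfe2l1 read 12.48, 12.48 and 12.36 in the KO mice and 12.36, 12.25 and 12.23 in the controls, with KO 3 just above control 1 and the rest apart. It differed by 0.16 (SE 0.10, limma adjusted p = 0.734). Mafg read 9.43, 9.46 and 9.22 against 8.96, 8.91 and 8.87, clear of overlap, and differed by 0.46 (SE 0.11, limma adjusted p = 0.260). Leaving out any 1 mouse gave Mafg differences of 0.41 to 0.53. A second Mafg probe set, 1448916_at, differed by 0.25, also without overlap.

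Mafk read 9.75, 9.89 and 9.79 against 9.72, 9.51 and 9.44, without overlap, and differed by 0.25 (limma adjusted p = 0.606). Nfe2l2 (Nrf2), the relative that answers oxidative stress, read 10.39, 10.49 and 10.61 against 10.10, 10.63 and 10.45 and differed by 0.10 (limma adjusted p = 0.911). Psmb5 and Psmb6, whose promoters hold the motif of these factors, had the differences of 0.12 and 0.07 given above. Without control 1 these differences were 0.037 and -0.047. The other members with the motif differed by 0.027 (Psmc6), 0.011 (Psmd12), 0.22 (Psmd9) and -0.15 (Psme4). Without control 1 the values of these members were -0.01, -0.108, 0.085 and -0.151, in the same order.

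Of 13 listed subunits and partners with other symbols 11 were measured and 6 of them (54.5%) were higher, beside 55.1% of all genes. The median difference was 0.008, beside 0.022 over all genes. None passed or had an unadjusted limma p under 0.05, beside 0.286% and 9.27% of all genes. Sem1, the smallest subunit of the regulatory particle, read 12.19, 12.20 and 12.20 against 12.33, 12.31 and 12.37, with all KO mice below all controls. It differed by -0.14 (SE 0.10, limma adjusted p = 0.761), and a second probe set, 1418575_at, differed by -0.14 as well, also without overlap. Ubr4, a large ubiquitin ligase, read 10.52, 10.05 and 10.16 against 9.92, 9.998 and 10.18 and differed by 0.21 (limma adjusted p = 0.776). Fbxo7, a partner of Psmf1, read 9.39, 9.20 and 9.12 against 8.69, 9.16 and 9.23, lowest in control 1, and differed by 0.21 (limma adjusted p = 0.797). Pomp, the maturation factor of the core, read 11.85, 11.89 and 11.85 against 11.78, 11.85 and 11.86 and differed by 0.033.

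Of 14 genes that bring substrates to the particle 12 were measured and 10 of them (83.3%) were higher, beside 55.1% of all genes. The median was 0.052, beside 0.022 over all genes. None passed or had an unadjusted limma p under 0.05, beside 0.286% and 9.27% of all genes. Bag6, a chaperone of misrouted membrane proteins, read 12.16, 12.28 and 12.13 against 12.05, 11.88 and 12.08, without overlap, and differed by 0.19 (limma adjusted p = 0.706). Vcp, the ATPase that pulls tagged proteins out of complexes, read 12.82, 12.92 and 12.80 against 12.84, 12.60 and 12.60 and differed by 0.17 (limma adjusted p = 0.757), with control 1 among the KO values. Ubqln2, a shuttle protein, differed by 0.12. Uba6, an enzyme that activates ubiquitin and the only 1 of 6 listed ubiquitin and activating genes analysed here, read 8.69, 8.92 and 9.14 against 9.28, 9.32 and 9.25. All KO mice were below all controls, by -0.37 on average (SE 0.14, limma adjusted p = 0.470), and the unadjusted limma p was under 0.05.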

How the data were processed

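Total RNA of 6 ventricle apices, 1 array each, was amplified and labelled with the NuGen Ovation kit, per the labels. The deposited values are log2 levels made by the authors with RMA (background correction, normalisation across arrays, then 1 summary of the probes in each set), per the submitters' processing notes. The log base was read from the range of 1.36 to 14.28. For RMA, the version was not given in the sources used here. Normalisation makes array distributions alike, which hides any change in the total RNA of a cell, and dim differences are compressed. No depth applies, and the number of arrays limits precision.

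Of 45101 probe sets, 64 controls were left out and 45037 were tested. The platform annotation gave 1 gene for 34945, several for 932 and none for 9160. Symbols were updated by Entrez identifier through a RefSeq gene table (GRCm38.p6), which held 34741, and 18194 genes were counted, each by its brightest probe set. Promoters came from RefSeq, same assembly.

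The comparison used limma 3.58.1 under R 4.3.3 (lmFit and eBayes, group as the only term, two-sided, median 7.39 degrees of freedom), with Benjamini-Hochberg adjustment over all tested probe sets. The fit was tested on simulated data. Array correlations were 0.989 to 0.995. The mice are separate animals.

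The members, lists and tests were chosen with earlier results of these data known. Named with every value were the catalytic subunits, activators and inhibitor, and up to 4 genes of smallest p in each role. Of each other list up to 3 of smallest p were named, with Nfe2l1, Nfe2l2, Pomp, Sem1, Tap1 and B2m, and other probe sets of opposite sign or unadjusted p under 0.05. Adrm1 is not analysed here. The marker lists other than leukocyte had median differences of -0.018 (cardiomyocyte, 10 genes), 0.098 (endothelial, 8), 0.015 (fibroblast, 8), 0.088 (mural, 7) and -0.32 (erythroid, 3 of 5 measured), and none of their genes passed. The erythroid median is the value of Hba-a1, which read 1.80 to 2.33, near the lowest value on the arrays. Alas2 differed by 0.21 and Slc4a1 by -0.48 (SE 0.515).

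Alternatives were array weights, a robust prior, a variance trend, keeping bright probe sets only (above the median mean, or above 5 in at least 3 arrays), renewed quantile normalization, centring, the replicate number as a block, no moderation, leaving out each mouse, KO 3 with the controls alone, averaging a gene's probe sets, and a threshold of 0.1.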

Additional observations from a re-analysis of the deposited data

How the results depend on the processing

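No member passed under any of the 18 alternatives, and the lowest adjusted p was 0.192 (Psme4, no moderation). Under 5 of these no gene on the array passed (replicate block, no moderation, KO 3 and the controls alone, without KO 1, and without control 2), so they say nothing on whether the members are stable. At an unadjusted p under 0.05 there was 1 member with a variance trend (Psme4, beside 9.94% of all genes), 1 with array weights (Psmg4, 11.7%), 2 without moderation (Psmc3ip and Psme4, 9.23%), 3 with the mean of all probe sets (Psma1, Psme4 and Psmf1, 10.5%), and 0 to 1 when 1 mouse was left out (Psmg4, without control 1, 10.2%). Genes passing overall numbered 0 to 124 by alternative. Members without overlap numbered 20 with KO 3 and the controls alone, beside 48.5% of all genes, and 7 to 15 when 1 mouse was left out, most without control 1, beside 29.9% of all genes. With fewer mice, groups separate more easily.

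The core median was 0.046 with centred arrays, 0.045 with KO 3 and the controls alone, and -0.015 to 0.041 when 1 mouse was left out. The regulatory particle median was 0.10 with centred arrays, 0.032 with the mean of all probe sets, and 0.042 to 0.084 when 1 mouse was left out. The ranges when 1 mouse was left out were -0.11 to 0.11 for the activators and inhibitor, 0.025 to 0.15 for the immunoproteasome (0.092 with all mice), and -0.088 to 0 for the chaperones. Both brightness filters gave 0.171 for the immunoproteasome, from which they drop Psmb11. Centring moved the median of all genes from 0.022 to 0.063, and the cause of the other shifts was not tested. In all, 19 members kept their sign under every alternative and 30 did not. Under the 11 fits that can change a difference, 521 of 539 single differences moved by less than 1 SD within groups. Leaving out 1 of 3 mice cannot move a difference that far. That count was therefore largely set in advance and does not show stability.

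The replicate block left 0 members passing and 0 at an unadjusted p under 0.05, and 0 genes passed overall with it. Equal numbers gave no sign of pairing. The deviations of same-numbered mice correlated at -0.151, -0.082 and -0.011, and no mouse correlated best with its own number. KO 1 correlated best with control 3 (0.18), KO 2 with control 1 (0.204) and KO 3 with control 2 (0.072). Deviations within a group depend on each other, so these correlations cannot exclude a pairing.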
